A study of Mus musculus with 12 samples.

Results

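The collagen chain genes of the mouse colon were followed across 12 one-colour Agilent arrays. A gene belonged to the set if its symbol reads Col, a number, a, a number, and if the scanner software marked a probe for it as well above background on both arrays of any 1 group. The RefSeq gene table lists 44 such symbols, 39 of them were matched by a probe, and 36 passed: 11 fibrillar, 8 basement membrane and 17 other chains, among 23239 genes and transcripts tested. Col10a1, Col19a1 and Col6a6 had a probe that did not pass, and Col12a1, Col20a1, Col22a1, Col6a3 and Col6a5 were matched by none. Of the 36 that passed, 29 were above background on all 12 arrays, 4 passed through a single group (Col17a1, Col4a3, Col9a1 and Col9a3), and 3 were above background on no knockout array (Col28a1, Col9a1 and Col9a3). Just outside the filter, Col10a1 was above background on 1 array and Col19a1 and Col6a6 on none. Just inside it, Col17a1 was above background on 2 arrays.

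RNA came from the colon of male C57BL/6J mice that were wild type (WT), lacked Atf6 (ATF6aKO) or lacked Atf6b (ATF6bKO). Mice of each genotype were untreated (UT) or drank 3% dextran sulfate sodium (DSS) for 3 days, which damages colonic epithelium. There were 2 arrays per group. Nothing in the labels says that the 2 came from separate mice, so the p-values speak of the spread between these samples alone, and that spread could be technical. The sources used here do not give the mice's age or how the knockouts were made. The 4 WT samples carry opposing labels: their titles and their treatment fields disagree about which 2 received DSS. They are grouped here by title as "titled DSS" and "titled UT", and no WT difference is read as an effect of DSS. The file headers give 3 scan times, 1 for each genotype with its 4 arrays, so genotype and scan cannot be told apart.

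Collagens are secreted or membrane proteins of 3 chains that wind around each other in a triple helix. The chains are hydroxylated, folded and checked in the endoplasmic reticulum (ER), where ATF6a and ATF6b, membrane-anchored transcription factors, respond to unfolded protein. Fibrillar collagens bear the tensile load of the submucosa and lamina propria, type IV, XV and XVIII collagens belong to basement membranes, and the remaining chains decorate fibrils, form beaded filaments and hexagonal nets or span the cell membrane. In the gut most of these chains are made by fibroblasts, muscle, endothelium and other stromal cells.

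A level here is the log2 processed signal minus the log2 of the array's 75th percentile, so 0 is the 75th percentile of that array, and levels of different probes are not compared. Between 26951 and 31411 probes per array were well above background. The probe for Atf6 read -3.23 to -3.04 on the 4 ATF6aKO arrays and 0.60 to 1.22 on the others. The probe for Atf6b read -7.64 to -4.14 on the 4 ATF6bKO arrays and -1.10 to 0.16 on the others. The 8 colon epithelial markers measured were above background on all 12 arrays. The 2 arrays of WT titled UT differed by a median of 0.484 log2 over all genes, against 0.169 to 0.216 in the other groups. Differences are called at an adjusted p under 0.05 in limma's moderated test, with Benjamini-Hochberg adjustment over all 23239 genes and transcripts.

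Promoters of 3 chains that rose together with DSS in the knockouts are shown because the ER stress response element that ATF6 proteins are known to bind, CCAAT and CCACG with any 9 bases between, can be looked for in them. They are the 250 bases before the RefSeq start on assembly GRCm38.p6, 5′ to 3′ on the strand of the gene, and capitals mark CCAAT or CCACG on either strand.
Col1a2, chr6:4505368-4505617, plus strand: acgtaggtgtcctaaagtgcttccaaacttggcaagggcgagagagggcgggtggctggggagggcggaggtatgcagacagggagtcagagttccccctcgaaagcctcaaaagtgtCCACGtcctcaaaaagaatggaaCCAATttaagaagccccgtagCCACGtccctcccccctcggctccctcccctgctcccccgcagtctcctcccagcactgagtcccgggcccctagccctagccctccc
Col3a1, chr1:45311288-45311537, plus strand: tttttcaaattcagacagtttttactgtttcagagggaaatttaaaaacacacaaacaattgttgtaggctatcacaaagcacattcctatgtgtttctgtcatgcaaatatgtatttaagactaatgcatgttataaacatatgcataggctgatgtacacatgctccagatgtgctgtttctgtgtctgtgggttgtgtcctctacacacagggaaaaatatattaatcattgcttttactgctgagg
Col18a1, chr10:77166531-77166780, minus strand: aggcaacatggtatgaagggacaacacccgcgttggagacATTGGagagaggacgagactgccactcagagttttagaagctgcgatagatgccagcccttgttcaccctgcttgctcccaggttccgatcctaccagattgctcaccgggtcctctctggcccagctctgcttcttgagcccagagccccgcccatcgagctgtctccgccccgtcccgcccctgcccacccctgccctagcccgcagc
The Col1a2 stretch holds CCAAT once and CCACG in 2 places, the Col18a1 stretch holds 1 CCAAT on the opposite strand, and the Col3a1 stretch holds neither. RefSeq lists 32 promoters for 29 of the 36 genes, each of 300 bases with 50 after the start. None of the 32 holds the whole element, which 0.119% of all 32851 promoters of that length hold. CCACG alone is in 34.4% of the collagen promoters and 32.8% of all, and CCAAT alone in 40.6% and 37.4%, on either strand and counted whether or not they overlap another match. A match is a description of letters and not a measured binding site.

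After 3 days of DSS, 15 of the 36 collagen genes were higher in the knockout colons and none was lower. The comparison took the 4 DSS arrays of both knockouts against the 4 untreated ones with genotype in the model. The 15 are 41.7% of the members, where 29.1% of all genes passed in either direction, 13.3% higher and 15.8% lower. The median difference was 0.44 log2 over the 36 and -0.01 over all genes. At an unadjusted p under 0.05 in limma, 16 members were higher and 1, Col7a1, was lower. Each of the 3 classes held chains that rose: 6 of 11 fibrillar (median 0.47), 4 of 8 basement membrane (median 0.37) and 5 of 17 other chains (median 0.25). The count fell to 9 when replicate 1 of either ATF6aKO group or replicate 2 of ATF6bKO DSS was left out and to 10 without ATF6bKO UT replicate 1, and 8 of the 15 kept their call in every setting in which they were tested: Col18a1, Col4a1, Col4a2, Col1a1, Col5a1, Col8a1, Col23a1 and Col28a1. The counts of 15 and 8 include Col28a1, whose probe was not well above background on any of the 8 arrays and stood at 0.28 with normexp background correction (adjusted p = 0.0495, limma). As these are whole-colon samples, more cells of a type and more RNA per cell cannot be told apart.

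**Figure D1:**
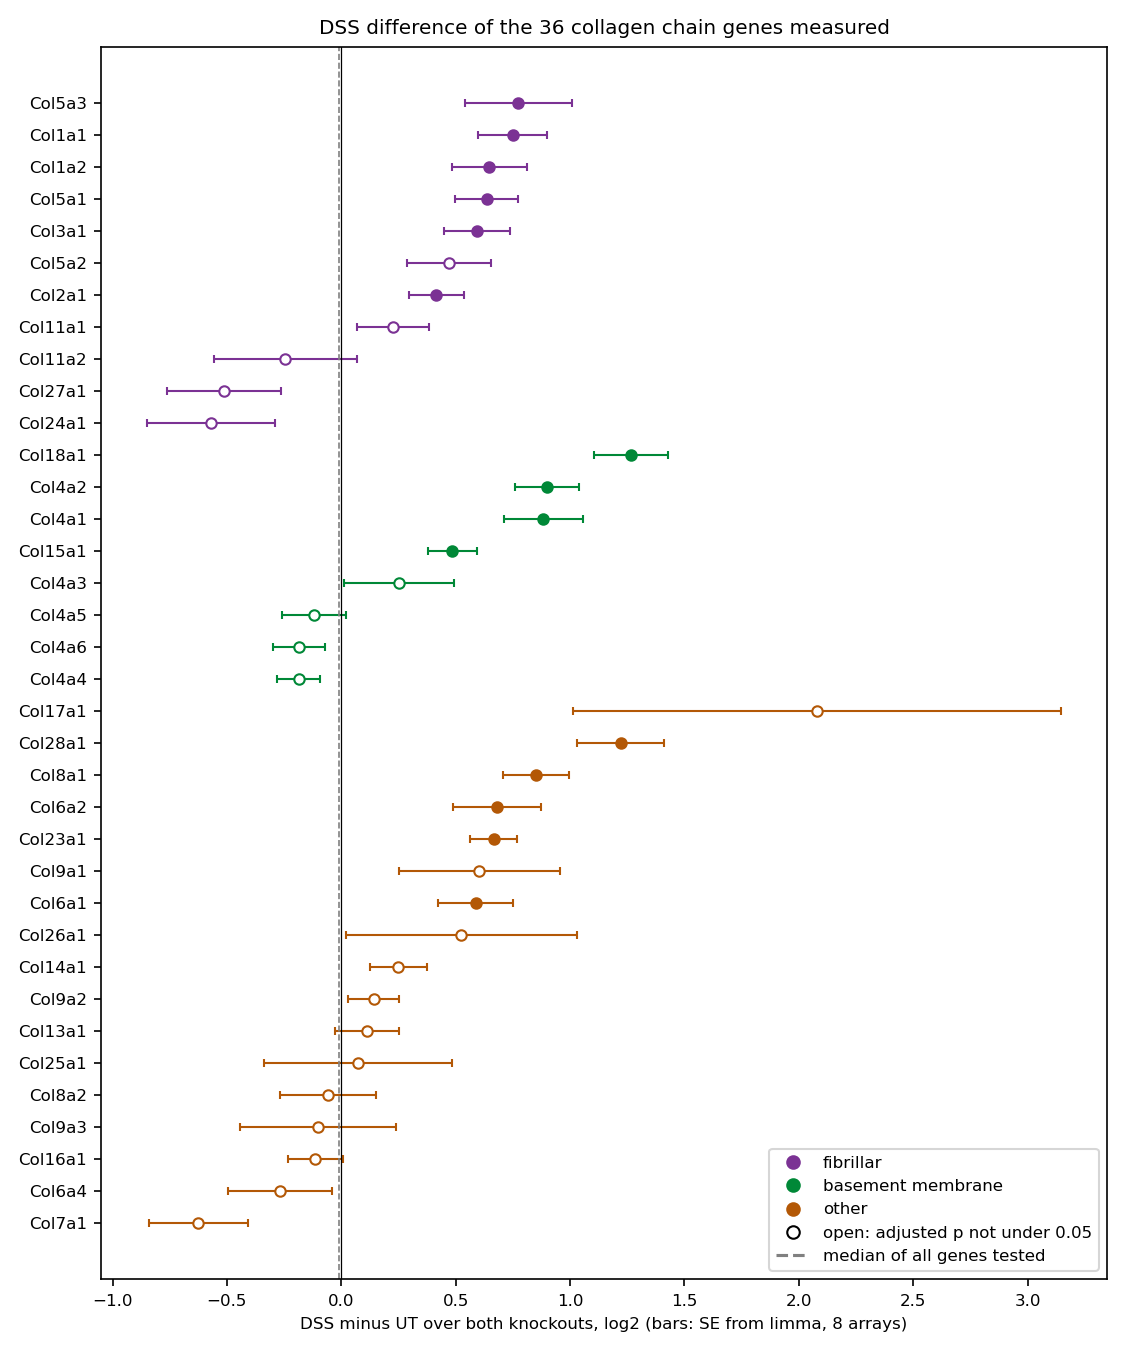
Difference between DSS and untreated arrays over both knockouts for the 36 collagen genes, in log2 on the horizontal axis, with bars for the standard error from limma (8 arrays) and open circles where the adjusted p was not under 0.05. The 15 filled circles lie between 0.42 (Col2a1) and 1.26 (Col18a1), to the right of the dashed median of all genes at -0.01. The marks of Col28a1 (filled), Col9a1 and Col9a3 rest on arrays all below background and are not measured differences. Those of Col17a1, Col4a3, Col25a1 and Col26a1 rest in part on such arrays.

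Among the fibrillar chains the type I pair rose by similar amounts. Col1a1, the alpha 1 chain of type I collagen, read 3.77 and 3.71 in untreated ATF6aKO, 4.77 and 4.37 in DSS-treated ATF6aKO, 3.74 and 3.76 in untreated ATF6bKO and 4.14 and 4.70 in DSS-treated ATF6bKO. All 4 DSS arrays lay above all 4 untreated ones, a difference of 0.75 log2 ± 0.15 (SE; adjusted p = 0.0124, limma). The 3 probes of Col1a1 gave 0.74 to 0.88. Its partner chain Col1a2 read 5.27 and 5.12 untreated and 6.25 and 5.75 with DSS in ATF6aKO, and 5.70 and 5.80 untreated and 6.00 and 6.47 with DSS in ATF6bKO. The DSS arrays were above the untreated ones within each knockout but overlapped across them, and the difference was 0.65 ± 0.16 (adjusted p = 0.0261, limma).

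Col3a1, the chain of type III collagen that shares fibrils with type I, read 4.91 and 4.85 untreated and 5.90 and 5.41 with DSS in ATF6aKO. In ATF6bKO it read 5.08 on both untreated arrays and 5.36 and 5.62 with DSS. The groups did not overlap, and Col3a1 was higher by 0.59 ± 0.14 (adjusted p = 0.0227, limma). Quantile normalization left that call at an adjusted p of 0.0677. Col5a2, which lies beside Col3a1 on chromosome 1 with 24624 bases and no coding gene between them, differed by 0.47 and did not pass (adjusted p = 0.0952, limma).

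Type V collagen nucleates fibrils inside type I collagen, and 2 of its 3 chains passed. Col5a1 read 1.30 and 1.20 untreated and 2.23 and 1.97 with DSS in ATF6aKO, and 1.47 and 1.35 untreated and 1.65 and 2.01 with DSS in ATF6bKO. Its groups did not overlap, and it was higher by 0.63 ± 0.14 (adjusted p = 0.0164, limma). Col5a3 read 0.07 and -0.35 untreated and 1.27 and 1.05 with DSS in ATF6aKO, and 0.65 and 0.93 untreated and 1.01 and 1.06 with DSS in ATF6bKO. The untreated ATF6aKO arrays were the lowest for Col5a3, its difference was 0.77 ± 0.24 (adjusted p = 0.0467, limma), and it kept that call in 5 of 15 other settings.

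Col2a1, the chain of type II collagen best known from cartilage, rose by the least of the called members. It read 0.26 and 0.09 untreated and 0.83 and 0.53 with DSS in ATF6aKO, and 0.16 and -0.02 untreated and 0.25 and 0.54 with DSS in ATF6bKO. The groups overlapped by 1 array, at 0.25 and 0.26, and the difference was 0.42 ± 0.12 (adjusted p = 0.0403, limma), a call kept in 6 of 15 other settings. Of 3 cartilage markers measured (Acan, Comp and Sox9), none was higher and Sox9, which colonic crypts also express, was lower by the same test. The part of other cell types in the Col2a1 result was not tested. The remaining fibrillar chains did not pass: Col11a1, a minor chain of cartilage fibrils, differed by 0.23, Col11a2 by -0.25, and the fibrillar chains Col24a1 and Col27a1 by -0.57 and -0.51. The 2 probes of Col11a2 disagreed in sign, at -0.25 and 0.14. The fibrillar count went from 6 to 2 when either replicate 1 of untreated ATF6aKO or replicate 2 of treated ATF6bKO was left out. It went to 3 (2 higher and 1 lower) on leaving out replicate 2 of untreated ATF6aKO, and to 3 for replicate 1 of treated ATF6aKO or of untreated ATF6bKO.

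The basement membrane chains split into 4 that rose and 4 that did not pass. Col18a1, whose protein carries the endostatin fragment and lies in epithelial and vascular basement membranes, had the largest difference among the members that were above background on all arrays. It read 2.21 and 1.96 in untreated ATF6aKO and 3.66 and 2.95 with DSS, and 2.08 and 1.96 in untreated ATF6bKO and 3.28 and 3.38 with DSS. Every DSS array lay above every untreated one, by 1.26 ± 0.16 on average or 2.40-fold (adjusted p = 0.0029, limma), and its other probe gave the same 1.26.

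Col4a1 and Col4a2 form the heterotrimer found in nearly all basement membranes. The 2 genes lie head to head on chromosome 8 of GRCm38.p6, at 11198423 to 11312889 and 11312805 to 11449287, and their annotated ends overlap by 85 bases. Col4a1 read 2.27 and 2.05 untreated and 3.54 and 3.14 with DSS in ATF6aKO, and 2.31 and 2.21 untreated and 2.67 and 3.02 with DSS in ATF6bKO. Col4a2 read 2.05 and 1.94 untreated and 3.19 and 2.99 with DSS in ATF6aKO, and 2.28 and 1.94 untreated and 2.66 and 2.95 with DSS in ATF6bKO. Neither gene's groups overlapped, and the pair rose by 0.88 ± 0.17 (adjusted p = 0.0112) and 0.90 ± 0.14 (adjusted p = 0.0052, limma).

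The minor type IV chains did not follow in the called set. Col4a3, Col4a4, Col4a5 and Col4a6, known from kidney, smooth muscle and other specialised basement membranes, differed by 0.25, -0.19, -0.12 and -0.18, with adjusted p from 0.182 to 0.55 in limma. Col4a3 and Col4a4 also sit head to head, with 114 bases of overlap, and Col4a5 and Col4a6 lie 1274 bases apart on the X chromosome. The 3 probes of Col4a6 disagreed, at -0.68 to 0.10. Col15a1, a collagen of muscle and capillary basement membranes and a relative of Col18a1, read -0.56 and -0.66 untreated and 0.03 and -0.27 with DSS in ATF6aKO, and -0.74 and -0.72 untreated and -0.39 and -0.11 with DSS in ATF6bKO. All DSS arrays were above the untreated ones for Col15a1, by 0.49 ± 0.11 (adjusted p = 0.0167, limma), and without ATF6aKO DSS replicate 1 the adjusted p was 0.053.

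**Figure D2:**
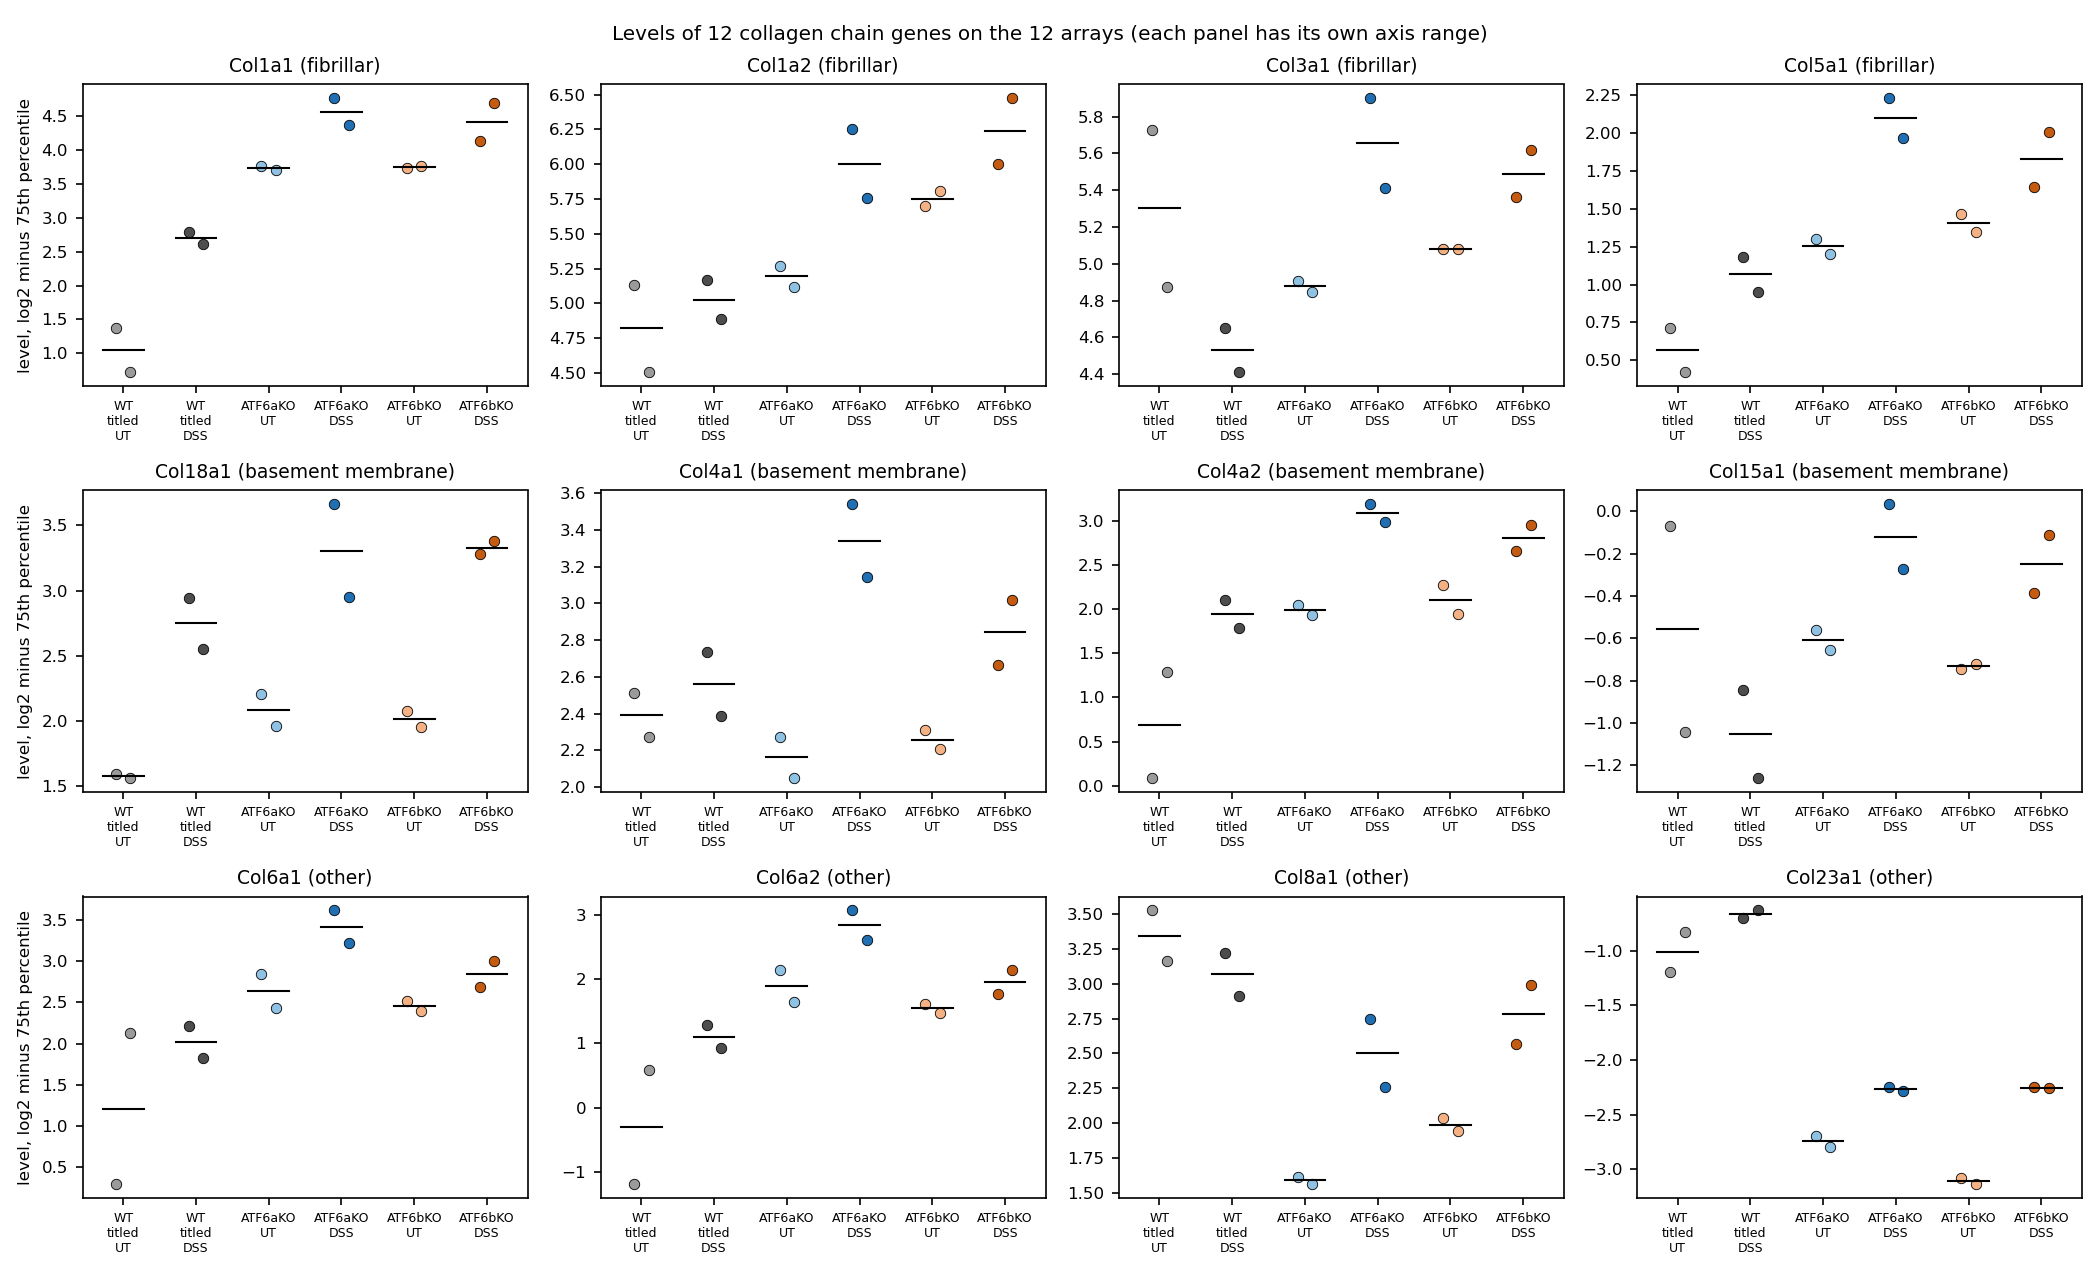
Levels of 12 collagen genes on the vertical axes (log2 signal minus the array's 75th percentile, own range in each panel), with 1 point per array, 6 groups of 2 arrays, and a line at each group mean. In the knockout groups Col18a1 goes from 1.96 to 2.21 untreated to 2.95 to 3.66 with DSS, while the WT arrays stand apart from all knockout arrays for Col1a1 (below) and Col23a1 (above).

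Of the 17 other chains, 5 passed. The type VI chains Col6a1 and Col6a2 form beaded filaments around stromal cells, and both rose. Col6a1 read 2.84 and 2.43 untreated and 3.62 and 3.22 with DSS in ATF6aKO, and 2.52 and 2.39 untreated and 2.69 and 3.01 with DSS in ATF6bKO. Col6a2 read 2.14 and 1.64 untreated and 3.07 and 2.61 with DSS in ATF6aKO, and 1.61 and 1.47 untreated and 1.77 and 2.13 with DSS in ATF6bKO. Within each knockout the DSS arrays were higher, while across knockouts the groups overlapped. The differences were 0.59 ± 0.16 (adjusted p = 0.0356) and 0.68 ± 0.19 (adjusted p = 0.038, limma), and each of the 2 calls held in 7 of 15 other settings. Col6a4, a further type VI chain, differed by -0.27 with 2 probes of opposite sign.

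Col8a1, a short-chain collagen of vessel walls and remodelling tissue, read 1.62 and 1.57 untreated and 2.75 and 2.26 with DSS in ATF6aKO, and 2.04 and 1.95 untreated and 2.57 and 2.99 with DSS in ATF6bKO. Its groups did not overlap, and it was higher by 0.85 ± 0.14 (adjusted p = 0.0069, limma). The related Col8a2 differed by -0.06. Col23a1, a transmembrane collagen, read -2.69 and -2.80 untreated and -2.25 and -2.28 with DSS in ATF6aKO, and -3.08 and -3.14 untreated and -2.25 and -2.26 with DSS in ATF6bKO. All 4 DSS arrays lay close together and above all untreated ones, by 0.67 ± 0.10 (adjusted p = 0.005, limma).

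Col28a1, a collagen known from peripheral nerve glia, passed the test (adjusted p = 0.0052, limma), but no fold is given. Its values ran from -7.70 to -7.22 untreated and from -6.61 to -5.92 with DSS, and the probe was not well above background on any of these 8 arrays. Of 5 enteric glia and neuron markers measured, 4 were higher with DSS by the same test (median 0.69), and their part in the Col28a1 result was not tested. Col7a1, the anchoring fibril collagen that ties epithelial basement membrane to stroma, read -2.14 and -2.54 untreated and -2.58 and -2.79 with DSS in ATF6aKO, and -0.86 and -0.68 untreated and -2.07 and -1.30 with DSS in ATF6bKO. Its difference of -0.63 ± 0.22 did not pass (adjusted p = 0.0682, limma). None of the 5 fibril-associated chains in the set was called. Col9a2, Col14a1 and Col16a1 differed by 0.14, 0.25 and -0.11. Col9a1 and Col9a3 were above background on none of the 8 arrays, and no difference is given for them. The transmembrane chains Col13a1 and Col25a1 differed by 0.11 and 0.07. Probes of Col13a1 and of Col16a1 disagreed in sign, the latter at -0.11 and 0.55. The count of 5 other chains went to 3 when either untreated ATF6bKO array, either treated ATF6aKO array, replicate 2 of treated ATF6bKO or replicate 1 of untreated ATF6aKO was left out, and to 3 with no filter on dim probes.

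Col17a1, the transmembrane collagen of hemidesmosomes in stratified epithelium, was above background on the 2 DSS-treated ATF6bKO arrays and on no other. It read -5.18 and -1.73 there and -8.57 to -7.06 on the remaining 10 arrays. In ATF6bKO it was at least 4.48-fold higher with DSS (adjusted p = 0.0159, limma): the bound sets the mean of the DSS arrays against, on each untreated array, the higher of the probe's own signal and the lowest signal well above background. The 2 DSS arrays differed by over 3 log2 units, and with only the 4 arrays of that genotype in the fit the adjusted p was 0.122. Col17a1 passed the filter through this group alone. Over both knockouts it did not pass (adjusted p = 0.183, limma), with no untreated array above background.

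Several markers of squamous epithelium were high on the same 2 arrays. Krt5, a keratin of basal squamous cells, read -0.40 and 3.56 there and -4.76 to -3.35 elsewhere. Krt14, its partner keratin, read -1.04 and 2.02 there and -2.81 to -1.33 elsewhere, and Krt4, a keratin of squamous mucosa, read -4.98 and -0.51 there and -8.19 to -6.37 elsewhere. Replicate 2 was the higher of the 2 arrays for Col17a1 and for each of these keratins. Krt13, another keratin of squamous mucosa, did not follow: it read 0.66 and 0.99 there and -0.21 to 1.92 elsewhere. Of the 6 squamous markers measured, 4 were above background on all 12 arrays, Krt6a on 9 and Krt4 on 2, and over both knockouts 1 was called, Sprr1a, a cornified envelope protein, at 2.64. The mean of the 6, each centred on its own mean over arrays, was 1.34 and 4.12 on these 2 arrays and at most 0.06 on the others. The part of squamous epithelium in the Col17a1 result was not tested.

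**Figure D3:**
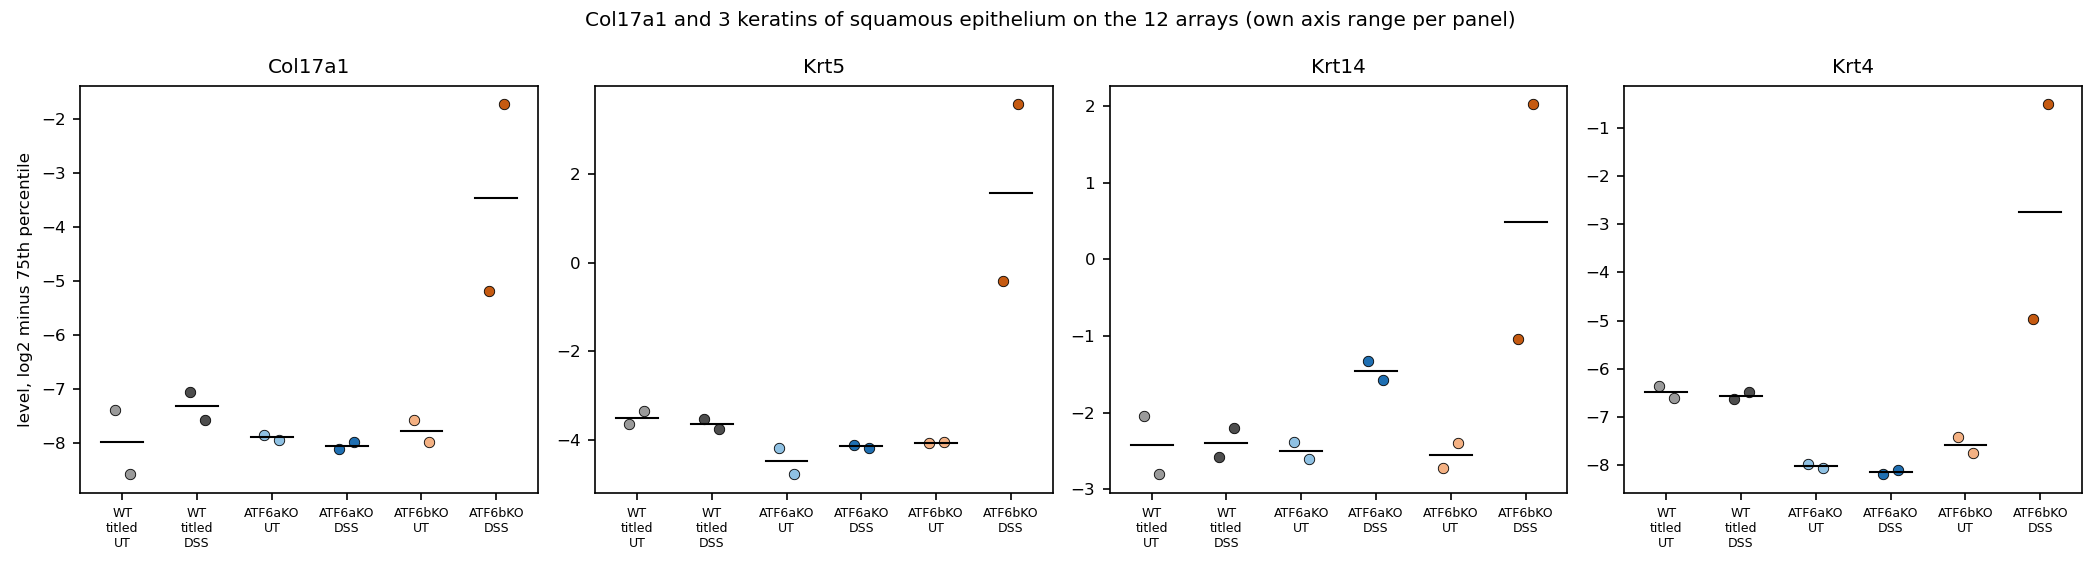
Levels of Col17a1 and of the keratins Krt5, Krt14 and Krt4 (log2 signal minus the array's 75th percentile, own range in each panel) on the 12 arrays, 2 per group, with a line at the group mean. Both DSS-treated ATF6bKO arrays lie above the other 10 in each of the 4 panels, and replicate 2 lies above replicate 1.

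The machinery that makes collagen was called in part. Of 19 folding and modifying enzymes of the ER measured, 7 were higher with DSS over both knockouts, none was lower, and the median was 0.32. Serpinh1, the collagen-specific chaperone HSP47, was higher by 0.90 ± 0.14 (adjusted p = 0.0046, limma), the prolyl 3-hydroxylase P3h2 by 0.81 and the peptidyl-prolyl isomerase Fkbp10 by 0.74. The prolyl 4-hydroxylase subunits P4ha1, P4ha2 and P4hb did not pass, at 0.45, 0.32 and 0.31. Outside the cell, 7 of 11 processing and cross-linking genes were higher (median 0.77). Lox, the lysyl oxidase that cross-links fibrils, was higher by 1.72 ± 0.19 (adjusted p = 0.002, limma), Loxl1, a related oxidase, by 1.08 and the transglutaminase Tgm2 by 1.05.

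The partners of collagens in matrix were called at similar or larger shares. Of 15 fibril-associated proteoglycans and glycoproteins, 9 were higher (median 0.54), led by Fbln1 at 0.82, the small proteoglycan Dcn at 0.81 and Aspn at 0.76. Of 16 laminins, nidogens and other basement membrane genes, 8 were higher and 1 lower (median 0.50). The laminin chains Lama1 and Lama4 were higher by 1.34 and 1.03, and the basement membrane proteoglycan Agrn was lower, at -0.38. Of 8 collagen receptors, 4 were higher (median 0.45), with the inhibitory leukocyte receptor Lair1 at 1.16, the collagen uptake receptor Mrc2 at 0.75 and the integrin chain Itgb1 at 0.54.

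All 6 collagen-degrading proteases measured were higher, and 5 of them were above background on all 12 arrays, with differences from 0.62 (Mmp14) to 2.41 (Mmp13). The collagenase Mmp13 was higher by 2.41 ± 0.45 (adjusted p = 0.0095, limma) and the gelatinase Mmp2 by 1.19. The collagenase Mmp8 passed (adjusted p = 0.002, limma) but was above background on 4 of the 12 arrays, and no fold is given for it. Of 10 TGF-beta ligands, receptors and targets, 5 were higher and 1 lower (median 0.64). Tgfb1, the ligand best known for inducing collagen genes, was higher by 1.07 ± 0.13 (adjusted p = 0.0025, limma), Inhba, an activin chain, by 1.22 and Tgfbi, a matrix protein, by 0.88. Smad7, an inhibitor of the pathway, was lower, at -0.74. Against the background of 29.1% these are shares of listed genes, and nothing particular to any list is read from them.

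Markers of stromal and blood-derived cells moved in the same comparison, in which 29.1% of all genes passed, 13.3% higher and 15.8% lower. Of 10 fibroblast markers other than collagens, 5 were higher (median 0.54), and the mean of the 10 centred levels ran from 0.38 to 0.76 on the DSS-treated knockout arrays and from -0.39 to 0.13 on the untreated ones. Of 8 endothelial markers, 7 were higher (median 0.72), with means of 0.29 to 0.55 against -0.29 to -0.19. Of 4 pericyte markers, 2 were higher (median 0.57). None of 7 smooth muscle markers passed in limma, with 2 higher at an unadjusted p under 0.05 and a median of 0.36. None of 4 mesothelial markers passed, adjusted or not. The smooth muscle median was 0.63 within ATF6aKO and -0.05 within ATF6bKO, and the mesothelial median 1.12 and -0.19. No marker of these 2 lists was called within a knockout or between the knockouts' DSS differences. Of 7 neutrophil and macrophage markers, 6 were higher (median 2.33), and of 8 colon epithelial markers 2 were (median 0.17). The 10 fibroblast, 8 endothelial and 4 pericyte markers were above background on all 12 arrays. Only 4 of the 7 neutrophil and macrophage markers were, with S100a8 above it on 10 arrays, Csf3r on 7 and Cxcr2 on 6. The median of 2.33 is the difference of Csf3r, so it rests in part on arrays below background. The part of these cells in the collagen differences was not tested.

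Within ATF6aKO alone 4 collagens were called, all higher, where 6.33% of all genes passed, 2.88% higher and 3.45% lower. They were Col5a3 at 1.30 ± 0.24 (adjusted p = 0.021), Col18a1 at 1.22 ± 0.25 (adjusted p = 0.0253), Col4a1 at 1.18 ± 0.22 (adjusted p = 0.0204) and Col5a1 at 0.85 ± 0.20 (adjusted p = 0.0408, limma). The median of the 36 was 0.50. Leaving out either untreated ATF6aKO array or replicate 1 of the treated ones left 0 calls, replicate 2 of the treated ones left 2, and leaving out either WT titled UT array, which enter the shared estimate of spread, gave 13. With only the ATF6aKO arrays in the fit 1 call was left.

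Within ATF6bKO alone 4 collagens were called, all higher, where 12.9% of all genes passed, 5.71% higher and 7.18% lower. Beside Col17a1 these were Col18a1 at 1.31 ± 0.25 (adjusted p = 0.0107), Col23a1 at 0.85 ± 0.16 (adjusted p = 0.0115) and Col28a1 (adjusted p = 0.0146, limma), the last again below background in both groups and given no fold. Col17a1 passed the filter through the DSS-treated group alone, so its call is not independent of the filter. No fibrillar chain passed, with 1 higher and 1 lower at an unadjusted p under 0.05, and the fibrillar differences ran from -0.90 (Col27a1) to 0.67 (Col1a1). The median of the 36 was 0.22. The count was 1 without ATF6bKO UT replicate 1 or 2 and 2 without ATF6bKO DSS replicate 2.

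The DSS difference was tested directly between the knockouts as an interaction. In limma 0 of 36 collagens passed, as did 0% of all genes, with 5 higher and 2 lower in ATF6aKO at an unadjusted p under 0.05. Without ATF6bKO DSS replicate 1 the count was 1. The smallest adjusted p belonged to Col17a1 (0.414, a difference of -4.46), Col4a3 (0.433, a difference of 1.11) and Col8a2 (0.465, a difference of 0.90). Those of Col17a1 and Col4a3 rest in part on arrays below background and are not measured differences. A p that misses the threshold does not show that the knockouts responded alike, and the 36 interaction values ran from -4.46 to 1.45 with a median of 0.29. The 1.45 belongs to Col26a1 and also rests in part on arrays below background. In ATF6aKO and ATF6bKO the values of Col1a2 were 0.81 and 0.48, those of Col5a3 1.30 and 0.25, and those of Col15a1 0.49 and 0.48.

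**Figure D4:**
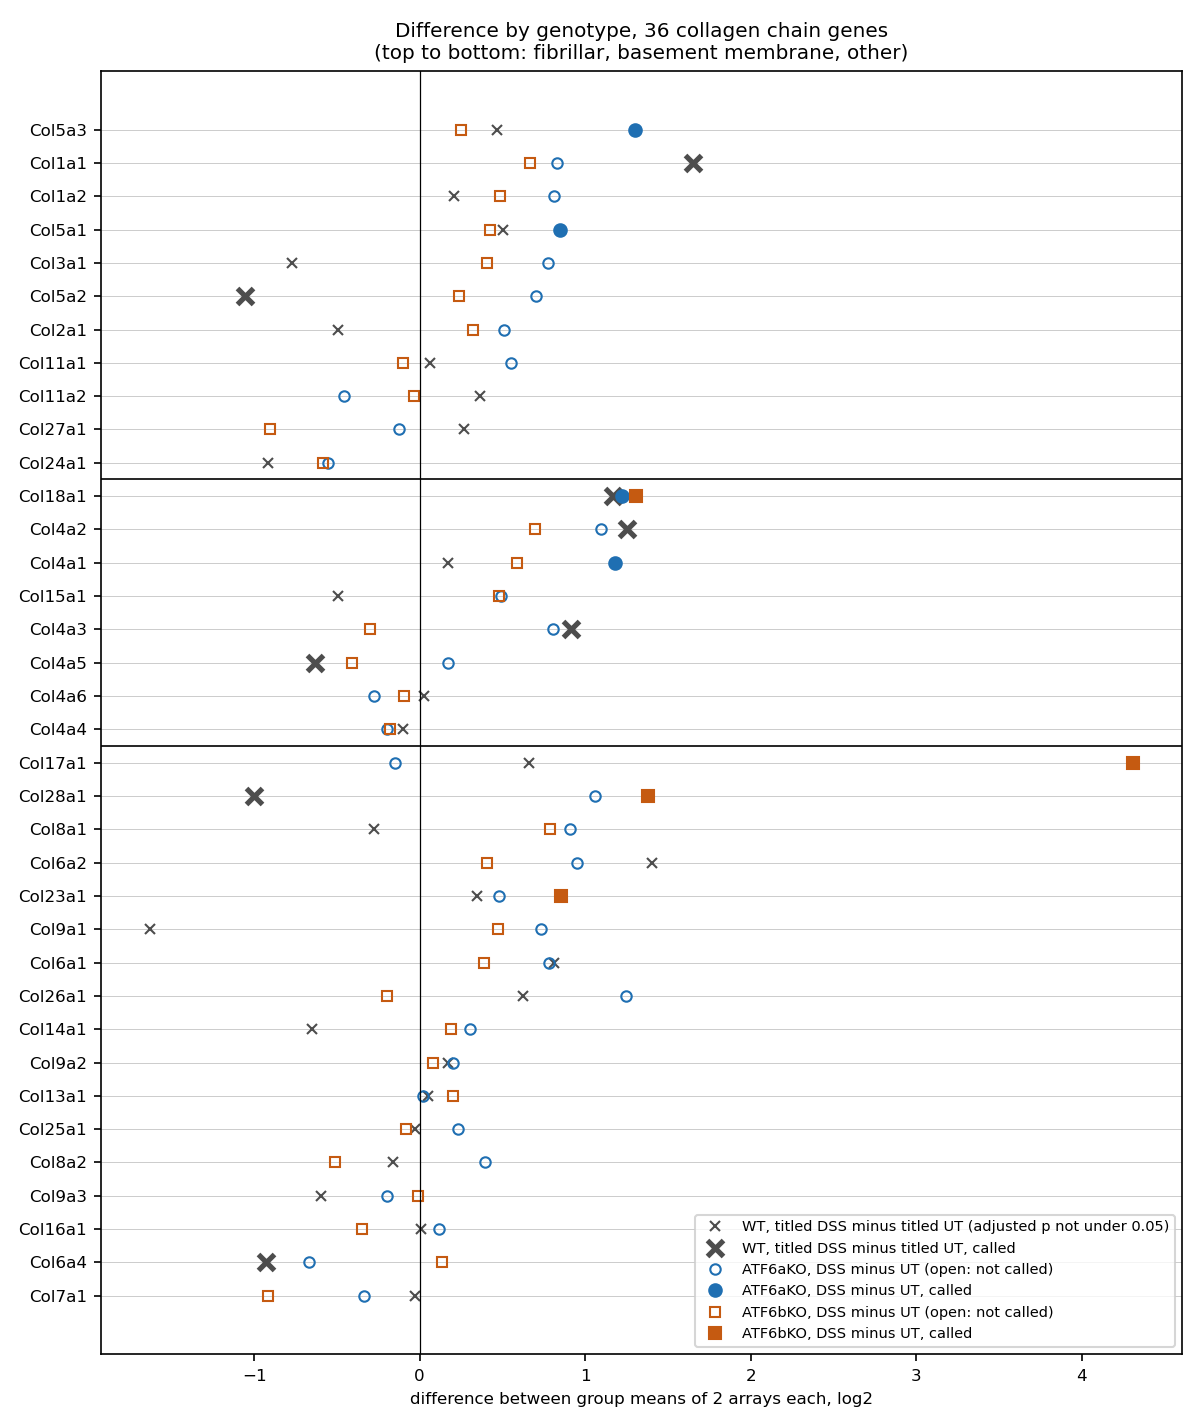
Differences of the 36 collagen genes in log2, by genotype: ATF6aKO (circles) and ATF6bKO (squares), DSS minus untreated, and WT (crosses), titled DSS minus titled UT, with filled or heavy marks for an adjusted p under 0.05. Col18a1 is called in all 3, at 1.22, 1.31 and 1.17, and Col17a1 is plotted at 4.31 in ATF6bKO and at -0.15 in ATF6aKO, where the untreated arrays of both and the treated ones of ATF6aKO are below background, so that the ATF6bKO mark stands for at least 4.48-fold and the ATF6aKO mark for no measured difference. The knockout marks of Col28a1 and the ATF6bKO mark of Col4a3 are below background too.

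Between the WT groups 8 collagens were called, 4 higher and 4 lower in the arrays titled DSS, where 31.7% of all genes passed, 14.7% higher and 17% lower. Col1a1 read 2.79 and 2.61 in titled DSS and 1.37 and 0.72 in titled UT, a difference of 1.65 ± 0.27 (adjusted p = 0.004, limma). Col18a1 read 2.94 and 2.56 against 1.60 and 1.56, a difference of 1.17 (adjusted p = 0.0098, limma). Neither gene's WT groups overlapped. Col4a2 was higher by 1.25 in titled DSS. Col4a3 was called higher too, but it was above background on 1 of the 2 arrays in each group and stood at 0.07 with normexp (adjusted p = 0.823, limma). In titled DSS Col5a2, Col28a1, Col6a4 and Col4a5 were lower, at -1.06, -1.0, -0.93 and -0.63, and with normexp Col28a1 was not called (-0.35). With the labels read from the treatment fields each of these signs would turn.

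The 2 arrays of WT titled UT carried more spread than those of the other groups. Their median difference over all genes was 0.484 log2, against 0.189 in titled DSS. In titled UT, Col4a2 read 0.09 and 1.29, Col6a1 0.29 and 2.12, and Col6a2 -1.18 and 0.58, and replicate 1 was the low array each time. Probes of 1 gene also disagreed between the WT groups. The 3 probes of Col1a1 gave titled DSS minus titled UT differences of 1.65, 1.74 and -0.16, and the 2 probes of Col4a1 gave 0.17 and 1.04. In the knockouts the probes of each of these genes gave like differences. The WT count was 0 with only the 4 WT arrays in the fit. It was 2 without WT titled DSS replicate 1 or 2, 3 without WT titled UT replicate 1 and 15 without WT titled UT replicate 2. Collagens not called between the WT groups included Col3a1, at 4.65 and 4.41 in titled DSS and 5.73 and 4.87 in titled UT, and Col1a2, at 5.17 and 4.88 and at 5.13 and 4.51.

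**Figure D5:**
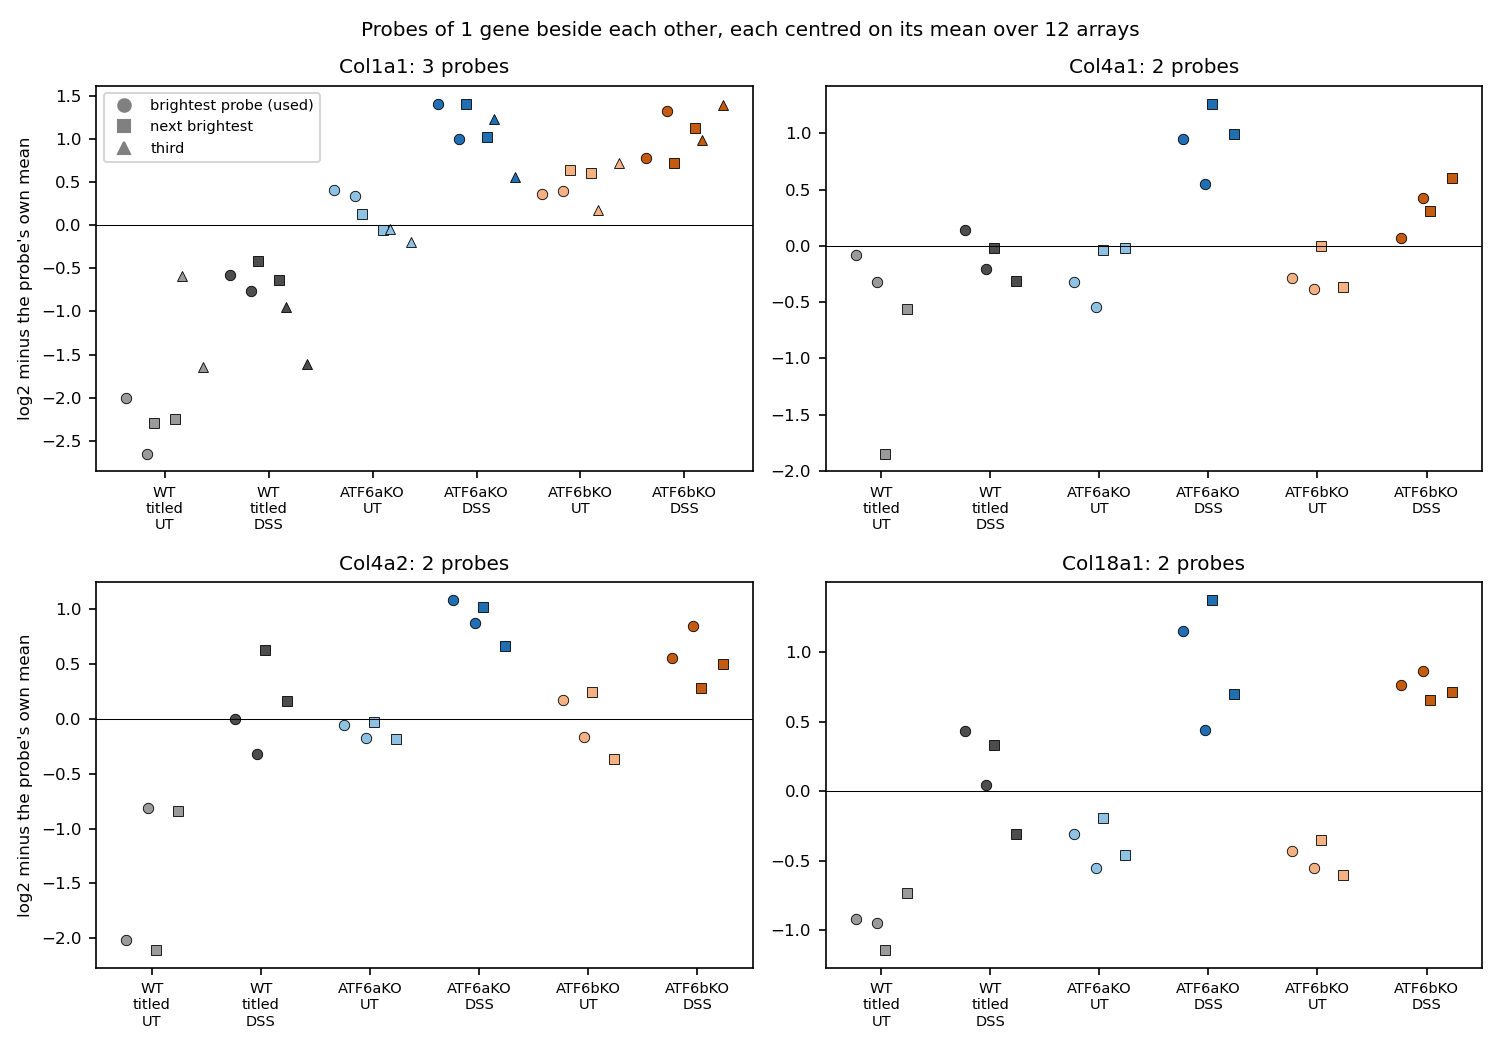
Every probe of Col1a1, Col4a1, Col4a2 and Col18a1 that passed the filter, in log2 minus the probe's own mean over the 12 arrays, with 1 point per array and a marker shape per probe. In the knockout groups the probes of a gene move together, while in WT the third Col1a1 probe gives -0.16 between the groups where the other 2 give 1.65 and 1.74.

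The DSS difference of each knockout was also set against the WT difference by titles. For ATF6aKO minus WT 2 collagens passed, where 7.65% of all genes did, 3.57% higher and 4.08% lower: Col28a1 at 2.06 ± 0.40 (adjusted p = 0.026) and Col5a2 at 1.76 ± 0.42 (adjusted p = 0.0422, limma). For ATF6bKO minus WT 2 passed, where 14.6% of all genes did, 6.29% higher and 8.34% lower: Col28a1 at 2.38 ± 0.40 (adjusted p = 0.012) and Col4a3 at -1.21 ± 0.32 (adjusted p = 0.0398, limma). Col28a1 was above background on no knockout array and Col4a3 on no ATF6bKO array, so their values here are not measured folds, and with normexp neither was called. Both comparisons share the WT arrays. With the WT labels read from the treatment fields 10 and 7 collagens passed, and Col5a2 and Col4a3 changed sign, to -0.35 and 0.61. The shares of 7.65% and 14.6% belong to the grouping by titles. Those for the treatment fields are not given, so the rise is not read as particular to collagens. Without WT titled UT replicate 2 the counts were 11 and 12. The ATF6aKO count was 0 without either WT titled DSS array or any 1 ATF6aKO array, and 1 without WT titled UT replicate 1 or any 1 ATF6bKO array. The ATF6bKO count was 1 without either WT titled DSS array, either ATF6bKO UT array, ATF6bKO DSS replicate 2 or either ATF6aKO DSS array.

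Against WT, ATF6aKO differed in 18 of 36 collagens, 11 higher and 7 lower, where 35.3% of all genes passed, 14.7% higher and 20.6% lower. ATF6bKO differed in 14, 9 higher and 5 lower, where 29.4% of all genes passed, 13.7% higher and 15.7% lower. Both counts include Col28a1, and that of ATF6aKO also Col9a1, which passed the filter through WT arrays alone. The median of the 36 was 0.20 in ATF6aKO and 0.26 in ATF6bKO, against -0.07 and -0.02 over all genes. Col1a1 read 0.72 to 2.79 on the 4 WT arrays, 3.71 to 4.77 in ATF6aKO and 3.74 to 4.70 in ATF6bKO, so that no knockout array overlapped WT. It was higher than in WT by 2.28 ± 0.24 (adjusted p = 0.00063) in ATF6aKO and by 2.21 ± 0.27 (adjusted p = 0.0023, limma) in ATF6bKO, and its 3 probes gave 1.58 to 2.28 and 2.02 to 2.21. Genotype and scan cannot be told apart here, and both comparisons share the WT arrays. The ATF6bKO count was 7 without WT titled DSS replicate 1 or ATF6bKO UT replicate 1, 8 without replicate 2 of WT titled DSS or of either ATF6bKO group, and 9 without ATF6bKO DSS replicate 1.

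Other chains higher in both knockouts were Col6a2 (1.96 and 1.35), Col4a2 (1.23 and 1.14), Col5a3 (1.06 and 1.46), Col1a2 (0.68 and 1.07), Col2a1 (1.06 and 0.86), Col5a1 (0.86 and 0.80) and Col4a6 (0.61 and 0.69). The second probe of Col5a3 gave -0.29 and 0.29, and the 3 probes of Col4a6 disagreed in sign. Col6a1 was higher in ATF6aKO, at 1.41 (adjusted p = 0.0188, limma), and its ATF6bKO value of 1.04 was not called (adjusted p = 0.0707, limma). Col8a2 (0.73) passed in ATF6aKO. Col18a1 (0.51) passed in ATF6bKO, a call kept in 5 of 16 other settings. Its ATF6aKO value of 0.53 was similar and not called (adjusted p = 0.0729, limma). Col4a3 also passed in ATF6aKO, but through the filter by its DSS-treated group alone, above background on 3 of 4 ATF6aKO and 2 of 4 WT arrays, and the call held in 5 of 15 settings. Col23a1 was the clearest of the lower chains: it read -1.19 to -0.63 in WT, -2.80 to -2.25 in ATF6aKO and -3.14 to -2.25 in ATF6bKO, lower by log2 differences of -1.67 and -1.84 with no overlap. The knockouts were therefore below WT for Col23a1 in either treatment group, and its 2 probes that passed gave -1.67 and -1.22 for ATF6aKO and -1.84 and -1.19 for ATF6bKO.

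Col28a1 was above background on all 4 WT arrays, at -4.94 to -3.67, and on none of the 8 knockout arrays. It was at least 3.03-fold lower in ATF6aKO (adjusted p = 0.0038) and at least 2.28-fold lower in ATF6bKO (adjusted p = 0.0111, limma), although with normexp background correction neither was called, at -0.19 in ATF6aKO and 0.36 in ATF6bKO. Col8a1 was lower in ATF6aKO at -1.16, Col7a1 at -1.02 and Col27a1 at -1.0, and Col27a1 was -0.97 in ATF6bKO. None of these 3 was called in ATF6aKO in the value table described next. Col6a4 was lower in ATF6bKO, at -0.88. Col26a1, a little-studied chain, was lower in ATF6bKO at -1.03, where 1 of 4 ATF6bKO and 4 of 4 WT arrays were above background, but with normexp it was higher, at 0.56 (adjusted p = 0.012, limma). Col9a1 was at least 1.23-fold lower in ATF6aKO, measured on 3 of 4 WT arrays, and Col11a1 lower at -0.65, and both turned to small positive values with normexp, 0.25 and 0.01. Col28a1 and Col9a1 passed the filter through WT arrays alone, so their calls as lower in the knockouts are not independent of the filter.

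These splits depend on the scaling between arrays. In the authors' deposited value table the median of all genes in ATF6aKO minus WT was 0.58, against -0.07 here, and in ATF6bKO minus WT 0.61, against -0.02. The collagens then split 20 higher and 2 lower, and 23 higher and 2 lower. Over all genes the share of calls that were higher went from 41.6% to 87.8% and from 46.6% to 91.0%. With normexp the ATF6bKO collagens split 22 higher and 3 lower, where 77.1% of all genes called were higher. Col1a1 stayed higher and Col23a1 lower in both knockouts under each scaling tried.

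Between the knockouts 1 collagen was called, where 9.13% of all genes passed, 3.02% higher and 6.11% lower. Col7a1 read -2.79 to -2.14 in ATF6aKO and -2.07 to -0.68 in ATF6bKO, with no overlap, and was lower in ATF6aKO, at -1.28 ± 0.22 (adjusted p = 0.0234, limma). It was not called without replicate 2 of either ATF6bKO group or any 1 of the 4 ATF6aKO arrays. The median of the 36 was 0.00, and their values ran from -2.36 (Col17a1) to 0.99 (Col26a1). Both ends rest in part on arrays below background. Col17a1 was above it on 0 of 4 ATF6aKO and 2 of 4 ATF6bKO arrays, and Col26a1 on 3 of 4 and 1 of 4. With normexp 18 collagens were called, 5 higher and 13 lower, where the median of all genes moved from -0.06 to -0.22. Of all genes called with normexp, 20.1% were higher, so nothing particular to collagens is read from this split.

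By class, the 3 sets of chains were spread differently over the 6 groups. Averaged after centring each gene on its mean, the 8 basement membrane chains stood at 0.14 to 0.60 on the DSS-treated knockout arrays, -0.12 to 0.00 on the untreated knockout arrays and -0.47 to -0.03 on the WT arrays, with no overlap between the first set and the rest. The 11 fibrillar chains stood at 0.08 to 0.50, -0.35 to 0.23 and -0.50 to -0.13, so that treated and untreated knockout arrays overlapped. The 17 other chains stood at -0.19 to 0.50, -0.44 to -0.14 and -0.04 to 0.30. These means are descriptions with no test. They include genes below background on most arrays: Col17a1, Col28a1, Col9a1 and Col9a3 among the other chains and Col4a3 among the basement membrane chains. For the other chains the 0.50 is ATF6bKO DSS replicate 2, where Col17a1 read -1.73. Their 0.30 is WT titled UT replicate 1, where Col9a1 read -3.97 and Col28a1 -3.67.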

How the data were processed

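Colon RNA was measured on 12 one-colour Agilent arrays, 2 per group. Per the file headers, the authors' scans were read with Agilent Feature Extraction 10.7.1.1, which gave the deposited processed signal, a background-subtracted intensity per spot. Control spots (43379 of 45018 kept) and outlier spots were left out, spots of 1 probe were averaged, and each array was set to log2 signal minus the log2 of its 75th percentile. Probes well above background on both arrays of at least 1 group were kept (30428 of 41174). Accessions were named through the RefSeq table (61.2% of probes), and the brightest probe stood for a gene. The authors' deposited value table holds log2 values of the same arrays, with their centring not stated. In 8 of 12 cases a column matched another array: the 4 WT columns hold the arrays of the other titled WT group, and the 4 ATF6aKO columns the other replicate of their own group. Arrays were therefore matched by values and the table served as an alternative.

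limma 3.58.1 in R 4.3.3 (lmFit, eBayes) compared DSS with UT over the 8 knockout arrays with genotype as a covariate, DSS with UT within genotypes and their differences over all 12 arrays, and genotypes over the 8 arrays compared with treatment as a covariate. The threshold was an adjusted p of 0.05 (Benjamini-Hochberg). ± values are standard errors. The number of arrays limits the precision. The members and lists were chosen with earlier results of these data known. Values per array are given for members called over both knockouts and for a fixed set of abundant or structural chains, other comparisons name up to 5 members each way or more, and other lists up to 3 genes each way, of which 1 is not reported here. The fits were tested on simulated data. Alternatives were normexp background correction (offset 50, on the median signals, chosen after seeing the data), quantile normalization, no filter and a stricter filter, the mean of probes, the value table, WT groups by the treatment fields, only the arrays compared, a replicate block and leaving out each array.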

Additional observations from a re-analysis of the deposited data

Results flagged for a closer look

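In 4 collagens both DSS arrays lay on opposite sides of both untreated arrays in the 2 knockouts. The share of all genes that did so was not counted, so nothing particular to collagens is read from these 4. Col17a1 stood at -0.15 in ATF6aKO, with no array above background, and at 4.31 in ATF6bKO, where the untreated arrays were below background too. The latter is at least 4.48-fold rather than a measured difference, and Col17a1 passed the filter through the treated ATF6bKO group alone. Col4a3 differed by 0.806 and -0.30 (below background on the ATF6bKO arrays), Col4a5 by 0.168 and -0.409, and Col8a2 by 0.394 and -0.51. The direct test between the knockouts called none of the 4, with adjusted p of 0.414, 0.433, 0.623 and 0.465 (limma).

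In 3 collagens the DSS difference of a knockout was apart from the titled WT difference by limma's test of the difference itself. Col28a1 was apart by 2.06 for ATF6aKO and 2.38 for ATF6bKO, with the probe below background on every knockout array. Col5a2 was apart by 1.76 for ATF6aKO, and Col4a3 by -1.21 for ATF6bKO, with the probe below background on every ATF6bKO array. Each rests on the titles of the WT samples.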

How the results depend on the processing

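Over both knockouts the 15 collagens called gave 224 values in other settings, of which 179 kept the call, 45 lost it and 0 changed sign. The 5 other chains went to 3 with no filter. In ATF6aKO the 4 calls went to 2 with no filter and 1 with only the arrays compared, in ATF6bKO to 1 with normexp, and in WT the 8 went to 0 with only the arrays compared. For ATF6aKO minus WT the 2 calls went to 4 with normexp or the stricter filter, 1 in the value table, 10 with WT by the treatment fields, and 0 with no filter or only the arrays compared. For ATF6bKO minus WT the 2 went to 4 with the mean of probes, 7 with WT by the treatment fields, and 1 with no filter, the value table or only the arrays compared. ATF6aKO against WT went from 18 to 11 with the treatment fields. ATF6bKO against WT went from 14 to 25 with normexp or the value table and 9 with no filter, and ATF6aKO against ATF6bKO from 1 to 18 with normexp and 2 with the stricter filter or the mean of probes. Signs turned for Col11a1 in ATF6aKO against WT (0.0131 with normexp, 0.0122 in the value table), Col9a1 there (0.248 with normexp), Col26a1 and Col28a1 in ATF6bKO against WT (0.558 and 0.361 with normexp), Col5a2 in ATF6aKO minus WT (-0.351 with the treatment fields), and Col4a3 in ATF6bKO minus WT (0.095 with normexp, 0.614 with the treatment fields). The share of all genes called in each setting is not given beside these counts, so they are not read as results about collagens. The cause of these changes was not tested.

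Leaving out 1 array gave 9 to 15 calls over both knockouts, 2 to 5 fibrillar, 3 to 4 basement membrane and 3 to 6 other chains. It gave 0 to 13 in ATF6aKO, 1 to 6 in ATF6bKO, 2 to 15 in WT, 0 to 1 between the knockouts' DSS differences, 0 to 11 for ATF6aKO minus WT, 1 to 12 for ATF6bKO minus WT, 12 to 19 for ATF6aKO against WT, 7 to 15 for ATF6bKO against WT and 0 to 1 between the knockouts.

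Same-numbered arrays did not deviate together (correlations of 0.0746 in ATF6aKO, -0.0177 in ATF6bKO and 0.0106 in WT), so the main fits did not pair them. Such a correlation cannot exclude a weak pairing. With the replicate block the counts were 14 over both knockouts (5 fibrillar, 4 basement membrane, 5 other), 1 in ATF6aKO, 5 in ATF6bKO, 6 in WT, 0 between the knockouts' DSS differences, 0 and 1 for the knockouts minus WT, 17 and 8 for ATF6aKO and ATF6bKO against WT and 1 between the knockouts. Signal near background limits Col17a1, Col28a1, Col9a1, Col9a3, Col26a1 and Col4a3.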
